A study of Homo sapiens with 8 samples.

Results

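The CC chemokine ligands examined here are 10 genes: CCL1, CCL2, CCL4, CCL5, CCL7, CCL8, CCL17, CCL19, CCL20 and CCL22. They were taken by symbol, as all probe sets annotated to exactly 1 of these genes, which gave 12 probe sets of 41091 with a single symbol, and 10 genes of 19775. CCL5 had 3 probe sets and each other gene had 1. Expression was measured on Affymetrix U133 Plus 2.0 oligonucleotide arrays in Reh, an established human cell line derived from acute lymphoblastic leukaemia of precursor B cells. The cells carried IRF5-4D together with IKKβ(EE) (the combination), IRF5-4D alone, IKKβ(EE) alone, or control constructs (mock), with 2 arrays for each of the 4 groups, numbered 1 and 3 and described by the submitters as biological duplicates. The single-construct labels read only IRF and IKK, and the variants are taken from the series' design text. IRF5-4D is a constitutively active variant of the transcription factor IRF5, and IKKβ(EE) one of the kinase IKKβ, encoded by IKBKB, which activates NF-κB. All 4 groups share the cell line and a transfection, and each represents this 1 line only. How long after transfection the cells were harvested, and what share of them took up the constructs, is not stated in the labels. The sources do not say that the arrays of a group came from separate cultures, so p values measure the spread between these arrays.

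CC chemokines are small secreted proteins that bind G protein-coupled receptors on leukocytes and direct their migration. The inflammatory members, among them CCL2, CCL4, CCL5, CCL8 and CCL20, are induced in many cell types by NF-κB and interferon regulatory factors after pathogen or cytokine signals. The homeostatic member CCL19 guides lymphocytes and dendritic cells in lymphoid organs. CCL17, CCL22, CCL5 and other chemokines are known as products of the malignant cells of Hodgkin lymphoma, a tumour of B-cell origin.

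The values were log2 expression values made by RMA, with array medians between 5.10 and 5.14 and lower quartiles between 3.67 and 3.73. RMA values carry no detection call, so a level close to the lower quartile was not shown to lie above background. Across genes, the correlation between the duplicate arrays was 0.994 to 0.997. Of 10 precursor B-cell markers 9 were measured, 8 of them lay above the median gene, and their median level was 12.4 to 12.8 on all arrays; VPREB1, the exception, read 4.06 to 4.46. Of 11 myeloid markers 8 were measured, and of 11 markers of T and NK cells all 11, and none of either list lay above the median gene of 6.16 in its mean over the 8 arrays; CD4 read 6.35 and 6.46 in mock cells. The monocyte marker CD14 read 3.78 to 4.67 and the T-cell receptor component CD3E 4.35 to 4.58. The linear sum over the 8 myeloid markers was 201 to 240 in the combination, 234 to 260 with IRF5-4D, 211 to 228 with IKKβ(EE) and 240 to 265 in mock cells. The sum over the 11 T and NK cell markers was 340 to 371, 318 to 327, 315 and 345 to 346 in the same order of groups. In limma no myeloid marker was called in any contrast. Of the T and NK cell markers NKG7, a granule protein, rose in the combination, by 1.34 (SE 0.19, limma adjusted p = 0.00512) against mock, and its part in the results below was not tested. Of 3 IKBKB probe sets, 2 read 8.89 to 9.17 and 7.15 to 7.58 over all arrays, and the other, named here after its values were seen, read 11.11 and 9.33 in the combination, 4.68 and 4.60 with IRF5-4D, 12.57 and 10.98 with IKKβ(EE), and 4.80 and 4.06 in mock cells on arrays 1 and 3. The brightest of 3 IRF5 probe sets read 8.002 and 7.82 in the combination, 7.15 and 7.25 with IRF5-4D, 6.95 and 7.13 with IKKβ(EE), and 6.93 and 7.06 in mock cells. Another IRF5 probe set read 5.56 and 5.60 in the combination, 5.65 and 5.66 with IRF5-4D, 5.13 and 5.04 with IKKβ(EE), and 5.36 and 4.82 in mock cells, where the 4 arrays with IRF5-4D lay above the other 4. The last IRF5 probe set read 4.58 and 4.39 in the combination and 4.27 and 4.24 with IRF5-4D. It read 4.20 and 4.28 with IKKβ(EE) and 4.38 and 4.03 in mock cells, a range that enclosed the arrays with IRF5-4D alone. Whether these probes lie within the construct is not stated in the labels.

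CCL2, CCL4 and CCL5 were far above mock in the combination and with IRF5-4D, CCL8 rose most with IRF5-4D alone, and CCL1 and CCL19 rose in the combination. Against mock, 6 of the 10 genes rose in the combination, where 2.66% of all genes did. With IRF5-4D 4 rose, CCL2, CCL4, CCL5 and CCL8, against 0.314% of all genes. With IKKβ(EE) 1 rose, CCL2, against 0.516% of all genes. No member fell against mock. A call here is an adjusted p under 0.05 in limma, with Benjamini-Hochberg adjustment over the 19775 genes, and the 3 contrasts share their mock arrays. The median log2 difference from mock over the 10 genes was 0.93 in the combination, 0.19 with IRF5-4D and 0.17 with IKKβ(EE), beside -0.027, -0.016 and -0.025 over all genes. Values were measured on whole cultures, so fewer responding cells and less RNA per cell cannot be told apart. All 4 calls with IRF5-4D and the 1 with IKKβ(EE) held in all 8 fits made without 1 array. In the combination the calls of CCL2, CCL4 and CCL5 also held in all 8. That of CCL19 was lost in all 8, that of CCL8 in 4, and that of CCL1 without mock replicate 1. The 6 calls in the combination therefore never held together in these fits.

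**Figure D1:**
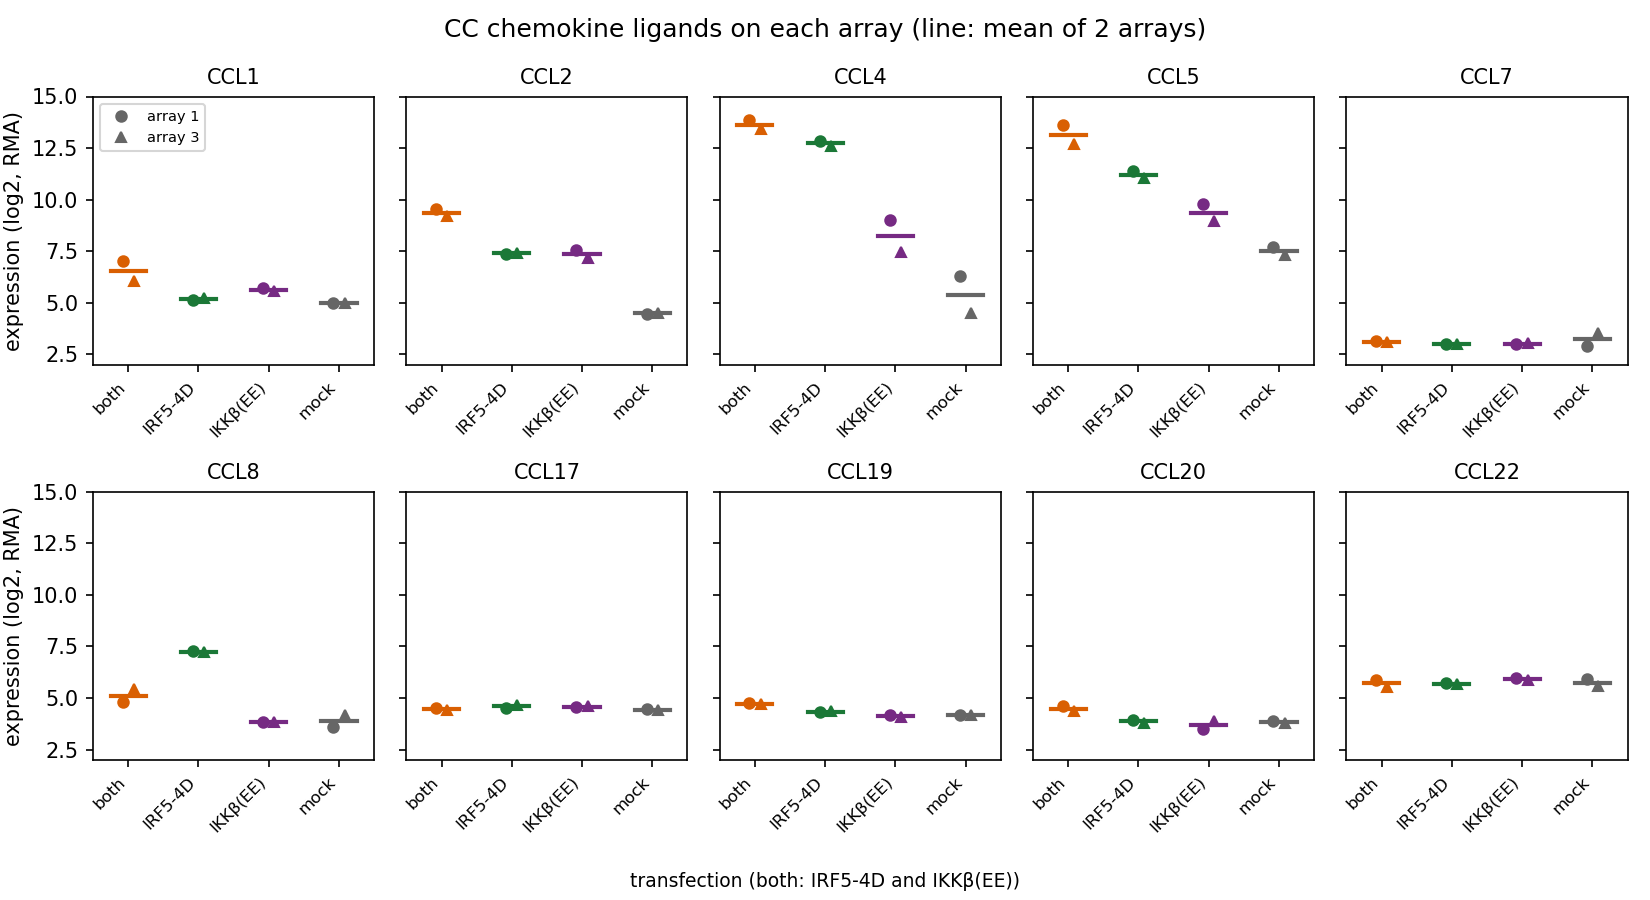
Log2 RMA expression of the 10 ligands on every array, with 1 panel per gene and the 4 transfections along the x axis. Circles are the arrays numbered 1, triangles those numbered 3, and lines the mean of 2 arrays; CCL2, CCL4 and CCL5 lie highest in the combination, CCL8 lies highest with IRF5-4D at 7.29 and 7.22, and CCL7, CCL17 and CCL22 stay within a narrow band. Levels of different panels come from different probes and are not comparable.

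CCL4 (MIP-1β) attracts monocytes and T cells. On the log2 scale CCL4 read 13.84 and 13.44 in the combination, 12.85 and 12.61 with IRF5-4D, 9.01 and 7.48 with IKKβ(EE), and 6.28 and 4.49 in mock cells. The groups did not overlap, and the arrays of IKKβ(EE) and of mock lay far apart within their groups, with SDs of 1.08 and 1.27 (n = 2). Its rise over mock was 8.26 (SE 0.57) or 306-fold in the combination (limma adjusted p = 8.41e-05), with 7.36 to 9.15 over the fits that left out 1 array. With IRF5-4D it was 7.35 (SE 0.57), and 6.45 to 8.24 over those fits. Mock replicate 3 read low for CCL4, at percentile 28.81 of the genes, so the size of both rises is uncertain. With IKKβ(EE) CCL4 read 2.86 (SE 0.57) above mock, which was not called (limma adjusted p = 0.0897), with 1.97 to 3.76 over the fits that left out 1 array. The lowest was without mock replicate 3, and the highest, without mock replicate 1, was the one called (limma adjusted p = 0.0267). The probe set may also bind transcripts of the near-identical CCL4L genes, which the annotation does not separate, so these values are uncertain as to the copy.

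CCL5 (RANTES) attracts T cells, eosinophils and monocytes. Its probe set with the highest mean read 13.62 and 12.68 in the combination, 11.39 and 11.03 with IRF5-4D, 9.77 and 8.95 with IKKβ(EE), and 7.71 and 7.31 in mock cells. These 4 ranges were separate and stood in that order. CCL5 rose by 5.64 (SE 0.34) or 49.9-fold in the combination (limma adjusted p = 3.51e-05) and by 3.70 (SE 0.34) or 13.0-fold with IRF5-4D (limma adjusted p = 0.0016). With IKKβ(EE) the difference was 1.85 (SE 0.34), or 3.60-fold, and was not called (limma adjusted p = 0.0594), though it was without either combination array (adjusted p = 0.0258). The other CCL5 probe sets gave the same order of groups. Their differences from mock were 5.90 and 5.18 in the combination, 3.85 and 3.36 with IRF5-4D, and 1.98 and 1.68 with IKKβ(EE). When every probe set was tested on its own, both of these passed with IKKβ(EE) (limma adjusted p = 0.0235 and 0.0188) and the first did not (adjusted p = 0.0707), where 0.37% of 41091 probe sets were called higher.

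**Figure D2:**
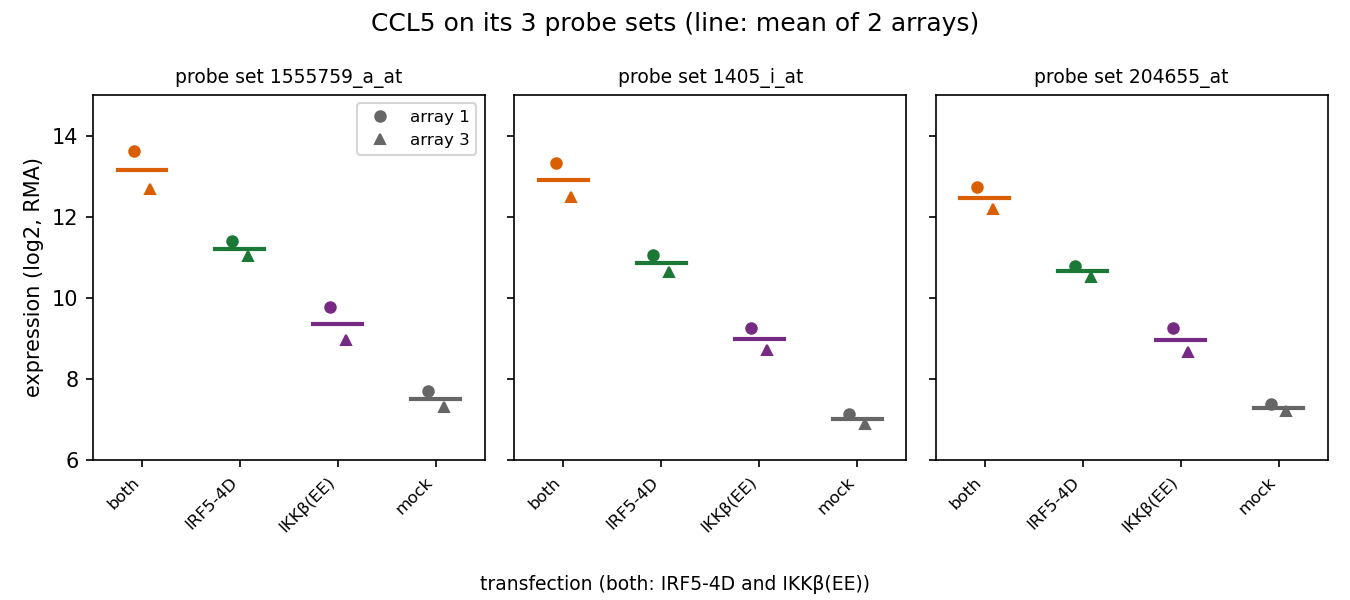
Log2 RMA expression on the 3 probe sets annotated to CCL5, with the 4 transfections along the x axis, circles and triangles for the arrays numbered 1 and 3, and lines for the mean of 2 arrays. On each probe set the combination lies highest, then IRF5-4D, then IKKβ(EE), and mock lowest, and no groups overlap.

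CCL2, CCL7 and CCL8 are the monocyte chemoattractant proteins 1, 3 and 2, which share the receptor CCR2 and attract monocytes. In RefSeq they lie close together on chromosome 17, where the protein-coding order is CCL2, CCL7, CCL11, CCL8, CCL13, CCL1. CCL2 read 9.54 and 9.21 in the combination, 7.38 and 7.41 with IRF5-4D, 7.56 and 7.17 with IKKβ(EE), and 4.48 and 4.52 in mock cells. The single constructs overlapped each other and lay between the combination and mock without touching either. CCL2 rose by 4.88 (SE 0.16) or 29.4-fold in the combination (limma adjusted p = 3.46e-06), by 2.90 (SE 0.16) or 7.44-fold with IRF5-4D (adjusted p = 0.000123), and by 2.87 (SE 0.16) or 7.29-fold with IKKβ(EE) (adjusted p = 0.000202). The mock arrays read low for CCL2, at percentiles 29.04 and 29.31 of the genes, so the size of these rises is uncertain. Between IRF5-4D and IKKβ(EE) the difference in CCL2 was 0.029, with a 95% confidence interval of -0.33 to 0.39 on the log2 scale.

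CCL8 had another order. It read 4.79 and 5.42 in the combination, 7.29 and 7.22 with IRF5-4D, 3.86 and 3.84 with IKKβ(EE), and 3.60 and 4.17 in mock cells. The IKKβ(EE) arrays lay inside the range of the mock arrays, and the combination lay between mock and IRF5-4D with no overlap. CCL8 rose by 3.37 (SE 0.23) or 10.3-fold with IRF5-4D (limma adjusted p = 0.000194) and by 1.22 (SE 0.23) or 2.33-fold in the combination (adjusted p = 0.0215). The call in the combination was lost in 4 of the 8 fits that left out 1 array, without either IRF5-4D array, without combination replicate 3 and without mock replicate 1, with values from 0.91 to 1.54. With IKKβ(EE) the difference of CCL8 from mock was -0.034 (95% confidence interval -0.55 to 0.48). The levels of CCL8 in mock and IKKβ(EE) cells were close to the lower quartile of the arrays, so the size of its rise is uncertain.

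CCL7 read 3.14 and 3.08 in the combination, 3.01 and 3.01 with IRF5-4D, 2.99 and 3.05 with IKKβ(EE), and 2.91 and 3.54 in mock cells. All of these levels lay below the lower quartile of the arrays, and the mock arrays enclosed all others. Its differences from mock were -0.11, -0.21 and -0.20 in the same order, with 95% confidence intervals that together ran from -0.63 to 0.30. CCL11, the eotaxin gene between CCL7 and CCL8, read 3.10 to 3.21 in the combination and 3.17 to 3.33 in mock cells.

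CCL1, a ligand of CCR8 made by activated T cells, read 7.004 and 6.04 in the combination, 5.15 and 5.22 with IRF5-4D, 5.71 and 5.56 with IKKβ(EE), and 4.97 and 4.98 in mock cells. The 4 groups were separate, and the combination arrays were the most scattered, with an SD of 0.68 (n = 2). CCL1 rose by 1.55 (SE 0.25) or 2.92-fold in the combination (limma adjusted p = 0.0114), with 1.06 to 2.03 when 1 array was left out. The differences of CCL1 from mock were 0.21 with IRF5-4D and 0.66 with IKKβ(EE), and neither was called (limma adjusted p = 0.992 and 0.583).

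CCL19, a ligand of CCR7, read 4.75 and 4.71 in the combination, 4.31 and 4.36 with IRF5-4D, 4.18 and 4.09 with IKKβ(EE), and 4.20 on both mock arrays. The combination stood above the other groups with no overlap. CCL19 rose by 0.53 (SE 0.11) or 1.44-fold there (limma adjusted p = 0.0362), a call that was lost in all 8 fits made without 1 array (adjusted p from 0.0654 to 0.149, differences from 0.51 to 0.55). CCL20, the ligand of CCR6, attracts B cells, memory T cells and immature dendritic cells. It read 4.61 and 4.37 in the combination, 3.95 and 3.78 with IRF5-4D, 3.49 and 3.90 with IKKβ(EE), and 3.90 and 3.81 in mock cells. The combination was again the highest group, with no overlap, and the other groups overlapped. Its difference from mock in the combination was 0.63 (SE 0.16), which was not called (limma adjusted p = 0.0777). The levels of both genes are low on these arrays, and a change from such levels has an uncertain size.

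CCL17 and CCL22 are the ligands of CCR4, which attract Th2 and regulatory T cells, and lie near each other on chromosome 16. CCL17 read 4.53 and 4.43 in the combination, 4.53 and 4.68 with IRF5-4D, 4.58 and 4.59 with IKKβ(EE), and 4.46 and 4.42 in mock cells. CCL22 read 5.89 and 5.53 in the combination, 5.72 and 5.67 with IRF5-4D, 5.98 and 5.89 with IKKβ(EE), and 5.92 and 5.57 in mock cells. Neither gene was called in any of the 7 contrasts. For CCL17 the 95% confidence intervals of the differences from mock ran together from -0.22 to 0.42, and for CCL22 from -0.42 to 0.55.

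**Figure D3:**
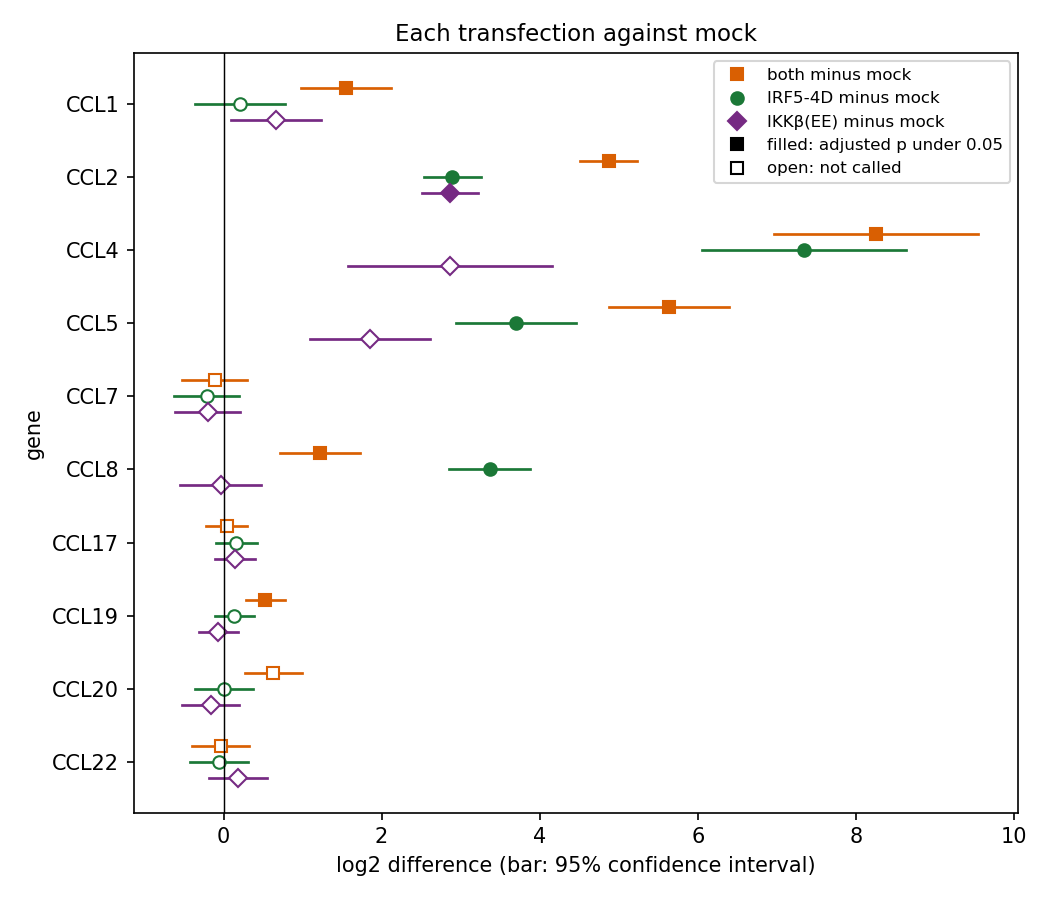
Log2 difference of each ligand from mock for the combination, IRF5-4D and IKKβ(EE), with bars for the 95% confidence interval and filled symbols for an adjusted p under 0.05 in limma. CCL4 reaches 8.26 in the combination and 7.35 with IRF5-4D, CCL8 is furthest from mock with IRF5-4D at 3.37, and the intervals of CCL7, CCL17 and CCL22 include 0 in each comparison.

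The promoters of CCL1, CCL20, CCL8 and CCL7 are shown. CCL1 and CCL20 rose or stood highest in the combination, and CCL8 responded to IRF5-4D. CCL7 was not called in any contrast. Of the genes next to CCL7, CCL2 rose and CCL11 was not called in any contrast. CCL19 also rose in the combination, and its promoter, which held none of the letters sought below, is not printed. The sequences are RefSeq's for GRCh38.p14, 250 bases before to 50 bases after the annotated start, 5′ to 3′ on the strand of the gene. Capitals mark matches to κB letters on either strand, which read GGG, any 5 bases, then CC, and NF-κB is the factor that IKKβ releases.
CCL1 (chr17:34363184-34363483, minus strand): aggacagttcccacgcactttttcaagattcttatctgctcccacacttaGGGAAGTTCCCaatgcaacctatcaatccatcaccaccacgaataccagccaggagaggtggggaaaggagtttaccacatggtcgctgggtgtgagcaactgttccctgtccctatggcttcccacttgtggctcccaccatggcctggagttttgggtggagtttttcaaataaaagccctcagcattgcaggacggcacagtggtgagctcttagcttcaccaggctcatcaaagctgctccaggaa
CCL20 (chr2:227813592-227813891, plus strand): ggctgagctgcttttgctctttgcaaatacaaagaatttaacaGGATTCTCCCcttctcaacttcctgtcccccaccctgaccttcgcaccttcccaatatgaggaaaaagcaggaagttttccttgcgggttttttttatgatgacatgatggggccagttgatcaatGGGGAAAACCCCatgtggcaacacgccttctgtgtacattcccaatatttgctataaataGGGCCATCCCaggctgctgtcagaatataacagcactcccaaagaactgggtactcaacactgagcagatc
CCL8 (chr17:34319185-34319484, plus strand): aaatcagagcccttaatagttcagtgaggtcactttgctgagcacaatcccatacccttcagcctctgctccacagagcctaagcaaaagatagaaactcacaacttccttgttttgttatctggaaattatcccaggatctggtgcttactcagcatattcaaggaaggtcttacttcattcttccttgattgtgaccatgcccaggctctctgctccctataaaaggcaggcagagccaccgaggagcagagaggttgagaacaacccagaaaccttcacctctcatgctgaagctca
CCL7 (chr17:34269971-34270270, plus strand): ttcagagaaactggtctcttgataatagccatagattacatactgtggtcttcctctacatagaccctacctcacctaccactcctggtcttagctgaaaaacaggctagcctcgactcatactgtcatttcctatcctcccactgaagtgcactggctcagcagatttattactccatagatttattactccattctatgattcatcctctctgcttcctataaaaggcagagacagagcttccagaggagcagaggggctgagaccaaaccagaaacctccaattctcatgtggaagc
Promoter sequence was matched for 6 members: CCL1, CCL7, CCL8, CCL19, CCL20 and CCL22. The promoter set used had no entry for CCL2, CCL4, CCL5 and CCL17. Of the genes called with IRF5-4D against mock, only CCL8 was therefore searched. CCL1 and CCL20 held the stricter κB letters, in which the last 2 of the 5 free bases are TT, as did 6.52% of 35116 RefSeq promoters of the same length. In CCL1 the match GGGAAGTTCC lay at -200 to -191 from the start, overlapped by GGGAACTTCC on the other strand. In CCL20 the match GGGGTTTTCC lay on the other strand at -79 to -70. CCL22 also held the looser κB letters, which 58.7% of promoters hold, and CCL7, CCL8 and CCL19 held neither. None of the 6 held the IRF letters, GAAA on both sides of any 2 bases, or the looser AANNGAAA, which 3.57% and 22.8% of promoters hold. A match is a description of these letters in this window and not a site.

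The next comparisons asked what each construct added to the other. Set against IRF5-4D alone, the combination was higher in 3 of the 10 genes and lower in 1, beside 1.22% higher and 0.187% lower over all genes. CCL2 was 1.98 (SE 0.16) or 3.95-fold higher (limma adjusted p = 0.000713), CCL5 was 1.94 (SE 0.34) or 3.83-fold higher (adjusted p = 0.0287), and CCL1 was 1.34 (SE 0.25) or 2.52-fold higher (adjusted p = 0.0419). CCL8 fell by 2.15 (SE 0.23), to 5.10 ± 0.45 in the combination against 7.25 ± 0.05 with IRF5-4D (SD, n = 2 each, limma adjusted p = 0.00267). Its call held in all 8 fits made without 1 array, with values from -2.46 to -1.83. CCL4 differed by 0.91 (SE 0.57, 95% confidence interval -0.38 to 2.20), which was not called (limma adjusted p = 0.596). On both numbered arrays the brightest and the last IRF5 probe sets were higher, and the remaining one lower, in the combination than with IRF5-4D. Their part in these differences was not tested. The 4 calls became 2, CCL2 and CCL8, without either IRF5-4D array. The CCL1 call was also lost without either IKKβ(EE) array (limma adjusted p = 0.0819) and without either mock array (adjusted p = 0.0587), and that of CCL5 without combination replicate 1 (adjusted p = 0.089).

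Set against IKKβ(EE) alone, the combination was higher in 6 of the 10 genes, beside 1.37% of all genes, and lower in none. CCL4 stood 5.39 (SE 0.57) or 42.1-fold above IKKβ(EE) (limma adjusted p = 0.00166), with 4.63 without IKKβ(EE) replicate 3 and 6.16 without IKKβ(EE) replicate 1, CCL5 3.79 (SE 0.34) or 13.8-fold (adjusted p = 0.000558) and CCL2 2.01 (SE 0.16) or 4.03-fold (adjusted p = 0.000335). CCL8 stood 1.25 (SE 0.23, adjusted p = 0.0278), CCL20 0.79 (SE 0.16, adjusted p = 0.0472) and CCL19 0.59 (SE 0.11, adjusted p = 0.0301) above IKKβ(EE) in limma. CCL1 was not called here, except without combination replicate 3, at 1.37 (limma adjusted p = 0.00206). The last IKBKB probe set was lower in the combination than with IKKβ(EE) on both numbered arrays, as given above, and its part in these differences was not tested. The CCL20 call was lost in all 8 fits made without 1 array (adjusted p from 0.0617 to 0.282), and that of CCL19 in all but those without a mock array. The CCL8 call was lost without either IRF5-4D array, either IKKβ(EE) array or combination replicate 3. Without either IRF5-4D array or either IKKβ(EE) array the 6 became 3, namely CCL2, CCL4 and CCL5.

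IRF5-4D was also set directly against IKKβ(EE), and 3 of the 10 genes were higher with IRF5-4D, beside 0.314% of all genes. CCL4 was 4.48 (SE 0.57) or 22.3-fold higher (limma adjusted p = 0.00837), CCL8 was 3.40 (SE 0.23) or 10.6-fold higher (adjusted p = 0.000245) and CCL5 was 1.85 (SE 0.34) or 3.61-fold higher (adjusted p = 0.0477). No member was called higher with IKKβ(EE). The call of CCL8 held in all 8 fits made without 1 array. Without either IRF5-4D array or IKKβ(EE) replicate 3 it was the 1 call left, and CCL4 then read 3.72 to 4.60 (limma adjusted p from 0.0576 to 0.11). The CCL5 call was also lost without IKKβ(EE) replicate 1 (limma adjusted p = 0.0764) and without either mock array (adjusted p = 0.0662), and so held only without a combination array.

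The interaction asks whether the combination departs from the sum of both single differences on the log2 scale, where 0 means that the fold changes multiply. In limma 0 of the 10 genes passed, beside 0.126% of all genes in either direction. An unadjusted limma p under 0.05 was found for 5 of the 10, beside 1206 of all 19775 genes. CCL8 read -2.11 (SE 0.32, 95% confidence interval -2.84 to -1.39, limma adjusted p = 0.0662), CCL4 -1.95 (SE 0.81, adjusted p = 0.765) and CCL2 -0.88 (SE 0.23, adjusted p = 0.369). CCL20 read 0.79 (SE 0.23, adjusted p = 0.493) and CCL19 0.46 (SE 0.15, adjusted p = 0.615). For CCL5 the value was 0.089, with a 95% confidence interval of -0.98 to 1.16. Without combination replicate 3 or mock replicate 3 CCL8 passed, at -2.43 and -2.40 (limma adjusted p = 0.0127 and 0.0448).

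**Figure D4:**
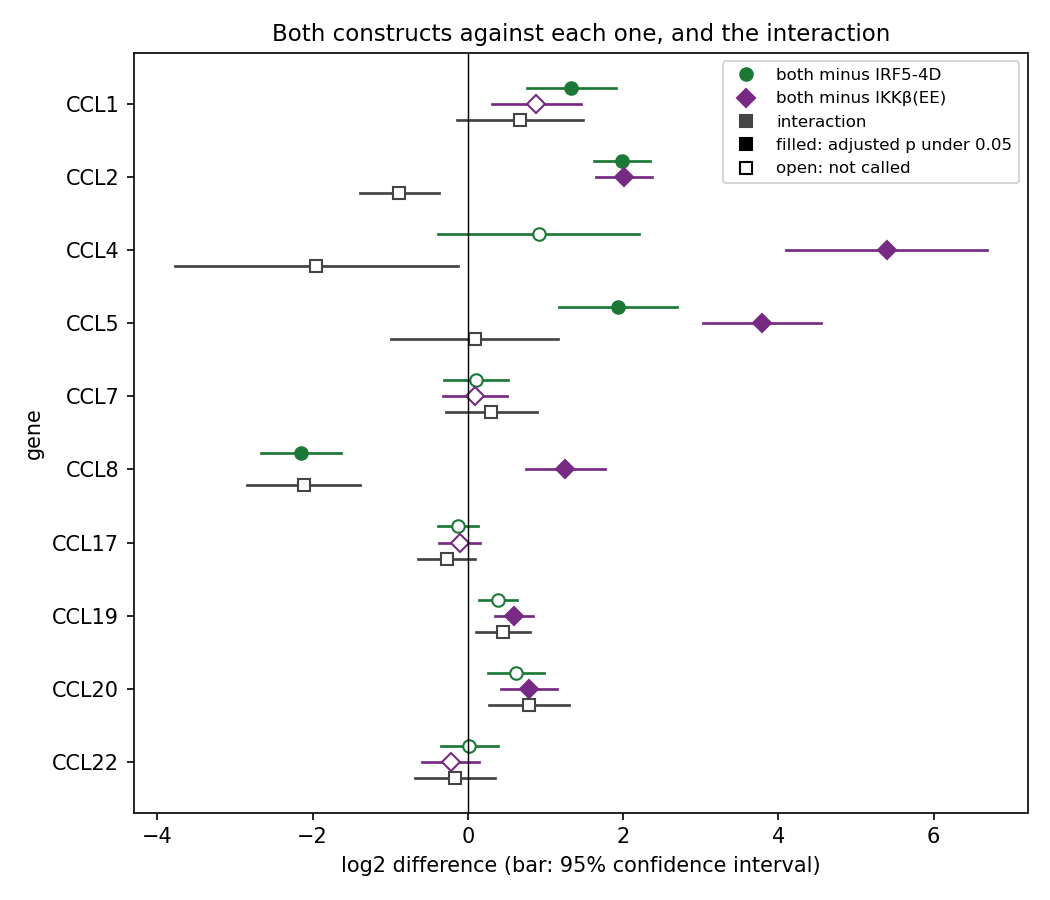
Log2 difference of the combination from IRF5-4D and from IKKβ(EE), and the interaction, for each ligand, with bars for the 95% confidence interval and filled symbols for an adjusted p under 0.05 in limma. CCL8 is the ligand called lower than with IRF5-4D, at -2.15, CCL4 stands 5.39 above IKKβ(EE), and no interaction is filled.

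The other genes of the system were read from lists. Of 18 other CC chemokine ligands 10 were measured by a probe set of their own, and in limma none was called in any of the 7 contrasts. At most 1 of the 10 had an unadjusted p under 0.05 in a contrast, beside 1017 to 3167 of all 19775 genes over the 7 contrasts. Their largest differences from mock were 0.28 in the combination (CCL28), 0.32 with IRF5-4D (CCL26) and 0.27 with IKKβ(EE) (CCL18), and all 10 lay below the median gene. Of 14 CC chemokine receptors and related atypical receptors 12 were measured. CCR7, the receptor of CCL19, and CCR6, the receptor of CCL20, rose against mock in the combination, and CCR7 also rose with each single construct. CCR7 read 10.34 and 9.25 in the combination, 7.49 and 6.80 with IRF5-4D, 7.35 and 7.84 with IKKβ(EE), and 4.62 and 3.93 in mock cells. CCR7 stood 5.52 (SE 0.38) above mock in the combination, 2.87 with IRF5-4D and 3.32 with IKKβ(EE) (limma adjusted p = 7.84e-05, 0.015 and 0.00563). The first of these calls held in all 8 fits made without 1 array, the second was lost without either IRF5-4D array or mock replicate 3, and the third without IKKβ(EE) replicate 3. CCR6 read 7.03 and 5.51 in the combination, 7.05 and 5.87 with IRF5-4D, 3.55 and 3.49 with IKKβ(EE), and 4.03 and 3.94 in mock cells. CCR6 was 2.28 (SE 0.46) above mock in the combination (limma adjusted p = 0.0332), a call lost without either IKKβ(EE) array, either mock array or combination replicate 1, with 1.53 to 3.04 over the 8 fits. With IRF5-4D it was 2.47 (SE 0.46) above mock and not called (adjusted p = 0.107). Against IKKβ(EE), CCR6 was 2.93 higher with IRF5-4D and 2.75 higher in the combination (limma adjusted p = 0.0224 and 0.0204). In the combination CCR7 stood 2.65 above IRF5-4D and 2.20 above IKKβ(EE) (limma adjusted p = 0.0117 and 0.0221). Each of these calls against a single construct was lost in some fits that left out 1 array. ACKR1, an atypical receptor that binds many chemokines without signalling, was 1.03 (SE 0.20) higher in the combination than with IRF5-4D (limma adjusted p = 0.0438), a call lost without either IRF5-4D array, either IKKβ(EE) array or combination replicate 1. CCR1, CCR2, CCR4 and CCR8, receptors of the other ligands, were not called in any contrast.

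Genes with the most similar pattern were found by the root-mean-square difference between the 4 group means, each gene centred on its own mean. For CCL2 they were PLAU, CCR7 and CCND2, with differences of 0.26, 0.29 and 0.43 on the log2 scale. For CCL5 they were NAPSB, CXCL11 and LTA at 0.42, 0.43 and 0.72, and for CCL4 RIN2, CXCL11 and IL1RN at 1.15, 1.29 and 1.39. For CCL8 they were GZMA, KIT and HSPA6 at 0.59, 0.64 and 0.64. KIT read 8.32 in the combination, 9.73 with IRF5-4D, 7.88 with IKKβ(EE) and 7.86 in mock cells as group means. The closest gene to CCL1 was HCP5 at 0.051, to CCL19 LEPROT at 0.013 and to CCL20 PRKCA at 0.015; the last 2 ligands themselves differed little between groups.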

How the data were processed

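The authors deposited a table of log2 values, 1 for every probe set on every array, made with RMA per the submitters' processing notes; RMA corrects background, quantile-normalizes arrays and summarises probes. The RMA version and the chip definition file are not stated in the labels. From 54675 probe sets, 62 controls and 13522 others without exactly 1 symbol (platform annotation of 2016) were left out. For each of 19775 genes, the probe set of highest mean was kept. No filter on level was applied.

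Differences were tested in limma 3.58.1 (R 4.3.3) with lmFit and eBayes on group means of the 8 arrays (degrees of freedom: residual 4, prior 5.09), and adjusted over all genes; the fit was tested on simulated data. The number of arrays limits the precision, with a median SE of 0.14 for 2 groups. The members, lists and tests were chosen with earlier results of these data known. Named are all members, the called members of each list (or the largest change), and 3 genes of most similar pattern for called members. Alternatives were other probe set choices, normalizations, variance models and thresholds, a replicate block and leaving out arrays. Promoters came from RefSeq (GRCh38.p14).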

Additional observations from a re-analysis of the deposited data

How the results depend on the processing

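Of 24 calls of a member in a contrast, 14 held under each alternative run for them: CCL2, CCL4, CCL5 and CCL8 with IRF5-4D against mock, CCL2 with IKKβ(EE) against mock, CCL2, CCL4 and CCL5 in the combination against mock, CCL2 and CCL8 in the combination against IRF5-4D, CCL2, CCL4 and CCL5 in the combination against IKKβ(EE), and CCL8 with IRF5-4D against IKKβ(EE). With 2 arrays a group, every other call was lost in at least 1 fit that left out 1 array. No called difference changed sign. Median centring lost the combination's calls of CCL19 against mock and IKKβ(EE), CCL1 against IRF5-4D and CCL20 against IKKβ(EE) (limma adjusted p from 0.0523 to 0.0747). The CCL1 call was also lost after another quantile normalization and with the mean of all probe sets. That mean, and testing every probe set on its own, also lost CCL20. Testing every probe set also lost CCL5 for IRF5-4D against IKKβ(EE) (limma adjusted p = 0.0537). Over the 8 fits without 1 array, the number of members called was 1 to 2 with IKKβ(EE) against mock, 3 to 5 in the combination against mock, 2 to 4 against IRF5-4D, 3 to 5 against IKKβ(EE), 1 to 3 for IRF5-4D against IKKβ(EE) and 0 to 1 for the interaction. With only genes above the median level, which leaves CCL2, CCL4 and CCL5 of the members, the combination had 3, 2 and 3 calls against mock, IRF5-4D and IKKβ(EE), and IRF5-4D against IKKβ(EE) had 1. A fit of only the 2 groups compared gave 3, 2 and 3 in the same contrasts of the combination, with fewer arrays. Limma with trend gave 2 calls with IKKβ(EE) against mock and 1 for the interaction. Limma with robust variance gave 1 for IRF5-4D against IKKβ(EE), without CCL4 and CCL5. It also lost CCL5 in the combination against IRF5-4D. The cause was not tested. At an adjusted p under 0.1 there were 3 with IKKβ(EE) against mock and 1 for the interaction.

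The replicate block, with the number 1 or 3 as a term, gave 3 calls with IKKβ(EE) against mock (CCL2, CCL4 and CCL5, the last 2 at adjusted p = 0.00482 and 0.00108) and 1 for the interaction (CCL8, adjusted p = 0.0157), and changed no other count. Deviations of same-numbered arrays correlated at -0.073 to 0.34 between groups, above 0.1 in 5 of 6 pairs of groups but not in all, so the numbers were not taken to pair the arrays.

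Uncalled differences near 0 changed sign in some fits. With arrays centred on their medians CCL17 in the combination against mock read -0.013 and CCL22 against IRF5-4D -0.048, and after another quantile normalization the second read -0.031. Without 1 array, differences from mock spanned -0.53 to 0.10 (CCL7), -0.081 to 0.095 (CCL20) and -0.23 to 0.12 (CCL22) with IRF5-4D, -0.51 to 0.11 (CCL7), -0.32 to 0.25 (CCL8) and -0.36 to 0.044 (CCL20) with IKKβ(EE), and -0.42 to 0.20 (CCL7), -0.0088 to 0.087 (CCL17) and -0.22 to 0.15 (CCL22) in the combination. CCL22 spanned -0.16 to 0.20 in the combination against IRF5-4D. For IRF5-4D against IKKβ(EE) the ranges were -0.16 to 0.22 (CCL2), -0.041 to 0.015 (CCL7), -0.056 to 0.092 (CCL17) and -0.037 to 0.37 (CCL20). For the interaction they were -0.38 to 0.56 (CCL5), -0.012 to 0.62 (CCL7) and -0.35 to 0.017 (CCL22).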

Other observations

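A probe set annotated to 3 genes, CCL3, CCL3L1 and CCL3L3, was outside the gene-level fit and was looked at after the results for CCL4, whose neighbour on chromosome 17 is CCL3. On the log2 scale it read 13.83 and 13.27 in the combination, 12.62 and 12.27 with IRF5-4D, 10.22 and 8.30 with IKKβ(EE), and 6.90 and 5.64 in mock cells. The 4 groups did not overlap and stood in the same order as those of CCL4. Which of the 3 genes gave the signal cannot be told from the annotation, and the difference was not tested.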
